A study of Mus musculus with 40 samples.

Results

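The acute-phase proteins described here are the products of 10 genes, Saa1, Saa2, Saa3, Saa4, Hp, Hpx, Lcn2, Orm1, Orm2 and Apcs, out of 21448 gene symbols covered by the assay. They were taken by name from a list, and each gene is given by its probe with the most reads. All 10 passed the filter on low counts. The livers came from wildtype mice of the outbred stock Crl:CD1(ICR), which received GenX, an ammonium salt of a perfluoroalkyl ether acid, by oral gavage on each of 90 days. Controls received only the deionized water vehicle (0 mg/kg bw/d), the lowest dose was 0.1 mg/kg bw/d, the middle dose 0.5 and the highest 5, with 5 males and 5 females at each. One fixed and paraffin-embedded section per animal was read with TempO-Seq, in which pairs of probes that bind side by side on an RNA are joined, amplified and counted. The comparisons ask how each dose differed from controls of the same sex, whether 5 differed from 0.5 mg/kg, whether the sexes responded differently, and how control females differed from control males.

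Acute-phase proteins are plasma proteins that the liver makes in larger (positive) or smaller (negative) amounts when tissue is injured or infected. In hepatocytes, interleukin-6 acts through STAT3 and interleukin-1 and TNF act through NF-kB and C/EBP factors to raise transcription of the positive ones. Serum amyloid A is known for the largest swings among them in the mouse, and its level in a healthy liver is low.

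Counts are given as CPM, the reads on a probe per 1e+06 reads of the library after TMM scaling. A probe was called when its adjusted p (edgeR, Benjamini-Hochberg over 17877 probes) was below the FDR threshold of 10%. Probe counts do not compare levels between genes. Mouse 355, a female of the middle dose, had a library that fell more than 2 SD below the mean depth and stood apart: it held 6711981 reads, was left out of every test and is described separately. The other 39 libraries held 10341341 to 15562253 reads, and their counts gathered around multiples of 20.8 to 49.8 reads, which puts a library at 287244 to 656743 captured molecules. In males, molecules numbered 287244 to 369995 in controls and 483008 to 656743 at 5 mg/kg, while in females they were 307766 to 521441 in controls and 306232 to 339820 at 5 mg/kg. The Y-linked gene Ddx3y was read in 20 of 20 males and in 0 of 20 females. In a bulk section, fewer cells of a type and less RNA per cell cannot be told apart.

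Orm1 was lower in males and Apcs in females at 5 mg/kg than in controls, and Apcs was also lower in males at 0.5 mg/kg. No acute-phase protein of the 10 was called higher than control at any dose in either sex in the main edgeR fit. With other settings, given below, Saa1, Saa2, Lcn2 or Saa4 was called higher in males. Saa1 and Saa2 spread by up to 55.4-fold and 373-fold between animals of 1 group, the 373-fold over a mouse with 20 Saa2 reads. The 3 doses of a sex were each set against the same controls. In males, 0 members were called at 0.1 mg/kg, where 0.0336% of all probes were called, 1 was called lower at 0.5 mg/kg (2.38% of all probes) and 1 was called lower at 5 mg/kg (8.28%). In females, 0 members were called at 0.1 mg/kg (0% of all probes), 0 at 0.5 mg/kg (0.213%) and 1 was called lower at 5 mg/kg (3.66%). With 10 members, 1 call at 5 mg/kg is near the share of all probes called in males, and no more can be read from the count. Across the members, the median log2 fold change at 5 mg/kg was -0.39 in males and -0.47 in females, and without Saa4, which had 0 reads in whole groups, -0.59 and -0.31, beside 0.10 and -0.01 over all probes tested. At an unadjusted p below 0.05 there were 3, 5 and 3 members in males at the rising doses, of which 3, 3 and 1 were higher. In females there were 0, 1 and 3, of which 0 were higher. Of the 17877 probes, 2435, 3235 and 3943 in males and 1843, 1826 and 3201 in females had such a p. DESeq2 called 1, 1 and 2 members in males and 0, 0 and 2 in females. Over all its probes it called 273, 864 and 1860 in males and 166, 302 and 988 in females.

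**Figure D1:**
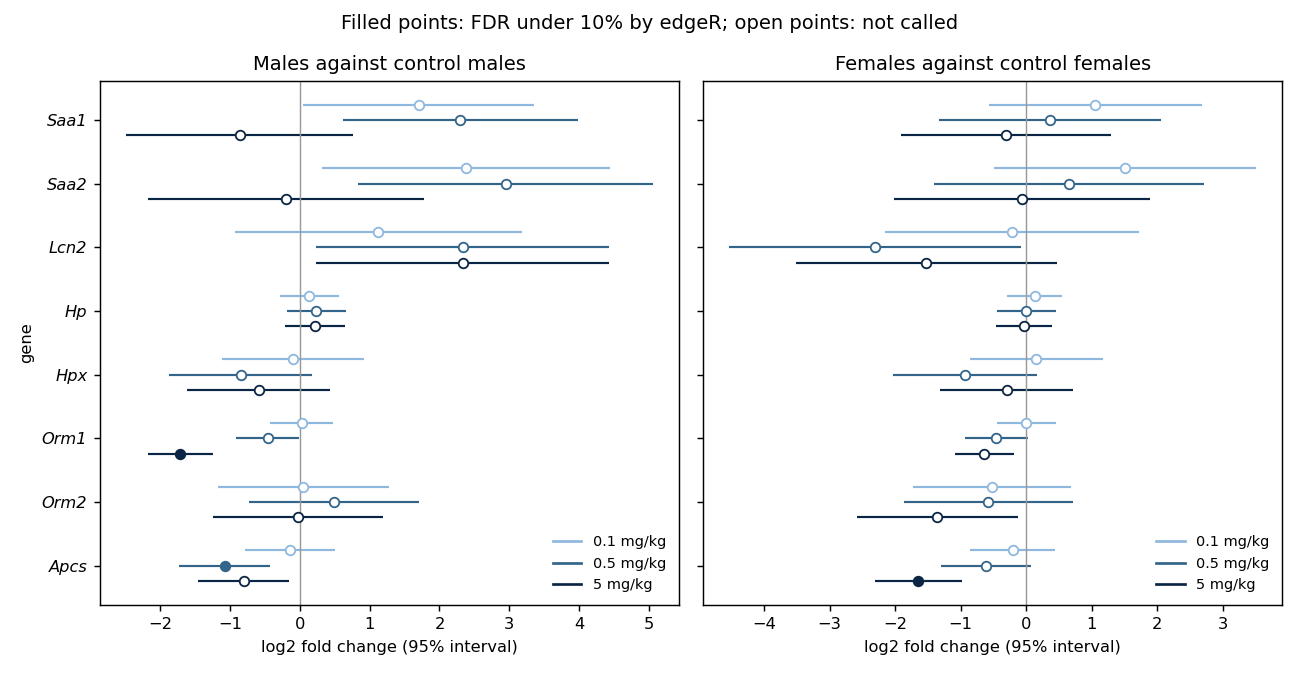
Log2 fold change of 8 acute-phase genes against controls of the same sex at 0.1, 0.5 and 5 mg/kg (points, with 95% intervals as lines), males left and females right. Filled points passed the FDR threshold of 10%: Apcs at 0.5 mg/kg and Orm1 at 5 mg/kg in males, and Apcs at 5 mg/kg in females. Saa3 and Saa4, read at 0 in many libraries, are not drawn.

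In the mouse genome GRCm38 the 4 serum amyloid A genes lie in 1 cluster on chromosome 7 that spans 42.3 kb. Saa3 (chr7:46711998-46715700), Saa4 (chr7:46727998-46732603) and Saa1 (chr7:46740497-46742980) are on the minus strand and Saa2 (chr7:46751790-46754313) is on the plus strand, so Saa1 and Saa2 face each other with 8.81 kb between their starts. Hpx (chr7:105591613-105600137) lies elsewhere on that chromosome and Hp is at chr8:109575128-109579172. Orm1 (chr4:63344560-63348163), Orm3 and Orm2 (chr4:63362449-63365878) stand in a row over 21.3 kb, Lcn2 is at chr2:32384633-32388252 and Apcs at chr1:172893961-172895041. The longest annotated transcripts of Saa1 and Saa2 were identical at 94.4% of aligned bases, and those of Orm1 and Orm2 at 91.0%. Reads could be shared within these pairs if a probe matches both, and the probe sequences were not analysed here, so values of the paired genes are uncertain to that extent.

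RefSeq promoters (GRCm38.p6) were matched for 8 of the 10 members, all but Hp and Orm1, and those of the genes that the results turn on are shown as the 250 bases before the RefSeq start, in the direction of the gene. Capitals mark matches on either strand to a C/EBP-type motif (TTGCNNAA), a STAT-type motif (TTCNNNGAA), the type II element of interleukin-6 responses (CTGGGAA) and a TATA box (TATAAA). The Saa1 and Saa2 windows are set one above the other because their genes moved together. Saa3 is shown because it is the cluster gene that was near 0 except in mouse 355. Orm2 is shown for its level in females, and Apcs for its fall at 5 mg/kg in females.
Saa1, chr7:46742981-46743230, minus strand: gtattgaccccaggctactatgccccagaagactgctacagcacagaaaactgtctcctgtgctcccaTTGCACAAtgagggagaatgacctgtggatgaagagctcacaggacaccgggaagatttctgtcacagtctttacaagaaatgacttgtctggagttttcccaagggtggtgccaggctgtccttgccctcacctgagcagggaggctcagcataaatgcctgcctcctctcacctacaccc
Saa2, chr7:46751583-46751832, plus strand: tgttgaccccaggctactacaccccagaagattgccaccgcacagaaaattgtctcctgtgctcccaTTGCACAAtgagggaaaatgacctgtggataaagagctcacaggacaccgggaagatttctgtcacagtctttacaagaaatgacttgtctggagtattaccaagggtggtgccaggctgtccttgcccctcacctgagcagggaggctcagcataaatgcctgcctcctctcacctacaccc
Saa3, chr7:46715677-46715926, minus strand: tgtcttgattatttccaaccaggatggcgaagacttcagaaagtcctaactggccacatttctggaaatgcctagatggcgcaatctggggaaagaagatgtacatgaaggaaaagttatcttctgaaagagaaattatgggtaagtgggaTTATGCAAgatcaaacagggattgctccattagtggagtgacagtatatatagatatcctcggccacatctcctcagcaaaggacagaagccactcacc
Orm2, chr4:63362199-63362448, plus strand: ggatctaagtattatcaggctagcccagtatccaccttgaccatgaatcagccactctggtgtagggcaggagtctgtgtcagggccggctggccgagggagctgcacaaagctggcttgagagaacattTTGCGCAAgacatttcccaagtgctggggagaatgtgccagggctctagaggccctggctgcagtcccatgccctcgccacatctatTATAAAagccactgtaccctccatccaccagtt
Apcs, chr1:172895055-172895304, minus strand: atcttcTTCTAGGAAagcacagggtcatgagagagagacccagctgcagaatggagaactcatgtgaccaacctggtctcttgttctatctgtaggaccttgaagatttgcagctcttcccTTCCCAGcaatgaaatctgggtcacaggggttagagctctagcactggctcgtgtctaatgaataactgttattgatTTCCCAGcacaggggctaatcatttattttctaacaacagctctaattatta
The Saa1 and Saa2 windows were identical at 95.6% of aligned bases and carry the same C/EBP-type match, TTGCACAA, 182 and 183 bases before the start. Saa1 and Saa3 were identical at 59.4%. The C/EBP-type motif was found in 7 of the 8 windows (Saa1, Saa2, Saa3, Saa4, Hpx, Lcn2 and Orm2), and in 9.56% of 32851 RefSeq promoters over the same length. Apcs was the member without it and held the only STAT-type match, which 7.02% of promoters hold, and both matches to CTGGGAA, which 9.10% hold. Orm2 held the only TATAAA, found in 12.4% of promoters. An NF-kB-type motif (GGG and TTCC with 3 bases of any kind between them), present in 4.65% of promoters, was in 0 of the 8 windows. Looser forms of this motif were not searched for, so the windows may hold other sites of that type. No match overlapped another, and the letters alone do not show a factor at a site.

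Saa1 encodes a major serum amyloid A, an acute-phase apolipoprotein of high-density lipoprotein. In control males Saa1 was at 41.4, 86.2, 111, 96.9 and 176 CPM. At 0.1 mg/kg it was at 142, 38.3, 141, 1170.2 and 171 CPM, at 0.5 mg/kg at 1538, 574, 27.8, 55.3 and 325 CPM, and at 5 mg/kg at 43.4, 39.2, 67.7, 82.2 and 49.6 CPM. The control and 5 mg/kg groups were narrow, while 1 male at 0.1 mg/kg and 3 at 0.5 mg/kg stood above all control males, and 1 male at each of the 3 doses stood below them all. The log2 fold changes against control were 1.70 (SE 0.82, adjusted p = 0.351) at 0.1 mg/kg, 2.30 (SE 0.84, adjusted p = 0.205) at 0.5 mg/kg and -0.86 (SE 0.81, adjusted p = 0.764) at 5 mg/kg, and none passed the threshold. Single males carried these values: without male 204 the change at 0.1 mg/kg was 0.26, and without male 301 the change at 0.5 mg/kg was 1.26. Saa1 in males was called higher in 1 of 7 alternatives at 0.1 mg/kg (adjusted p 0.0749 to 0.9999) and in 1 of 7 at 0.5 mg/kg (0.000112 to 0.394). Between the doses, Saa1 was lower at 5 than at 0.5 mg/kg in males, by -3.16 on the log2 scale (SE 0.87, adjusted p = 0.0373). That call was lost without male 301 (log2 fold change -2.12, adjusted p = 0.323), without male 401 (adjusted p = 0.110) or without male 402 (adjusted p = 0.124), and over the other alternatives the adjusted p ranged from 2.00e-08 to 0.382.

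In females, Saa1 was at 116, 258, 353, 237 and 143 CPM in controls and at 58.8, 93.6, 730.4, 1292 and 127 CPM at 0.1 mg/kg. It stood at 121, 39.6, 69.2 and 912 CPM in the 4 females kept at 0.5 mg/kg and at 60.7, 651, 57.7, 75 and 51.1 CPM at 5 mg/kg. One or a few animals at each dose stood above all controls, and the rest lay within or under the control range. At 5 mg/kg 4 of 5 females were below the lowest control and the other, mouse 452, was above the highest. No comparison of Saa1 in females passed the threshold: at 5 mg/kg the log2 fold change was -0.31 (95% interval -1.92 to 1.30), and it was -1.86 without mouse 452. Over all leave-outs of 1 mouse the female values ran from 0.19 to 1.34 at 0.1 mg/kg and from -1.53 to 0.73 at 0.5 mg/kg.

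Saa2, the second major serum amyloid A, also held single high animals. It was at 22 to 45.1 CPM in control males, at 9.89 to 814 CPM at 0.1 mg/kg, at 6.29 to 938 CPM at 0.5 mg/kg and at 19.9 to 37.8 CPM at 5 mg/kg. In females it was at 79.3 to 137 CPM in controls, at 30.2 to 808 CPM at 0.1 mg/kg, at 1.45 to 540.2 CPM at 0.5 mg/kg and at 13.5 to 413 CPM at 5 mg/kg. The highest animal of a group exceeded the lowest by 1.73-fold to 373-fold for Saa2 and by 2.10-fold to 55.4-fold for Saa1. The 373-fold rests on female 352, whose 20 Saa2 reads stand for 0.570 molecules. The next lowest female of its group was at 22.6 CPM. The coefficient of variation of Saa2 was 25.6% in control males but 138% in males at 0.5 mg/kg. The log2 fold changes of Saa2 in males were 2.38 (SE 1.03, adjusted p = 0.350) at 0.1 mg/kg, 2.95 (SE 1.05, adjusted p = 0.187) at 0.5 mg/kg and -0.20 (SE 0.98, adjusted p = 1) at 5 mg/kg. Without male 204 the change at 0.1 mg/kg turned to -0.19, and without male 301 that at 0.5 mg/kg was 1.66. Saa2 in males was called higher in 1 of 7 alternatives at 0.1 mg/kg (adjusted p 0.0160 to 0.9999) and in 3 of 7 at 0.5 mg/kg (6.03e-05 to 0.327). The step from 0.5 to 5 mg/kg in males was -3.15 (SE 1.06, adjusted p = 0.144), not called, but called in 4 of 7 alternatives and without male 303 or 304, with adjusted p values over the alternatives from 8.92e-06 to 0.382. The ratio of Saa2 to Saa1 within a library ran from 0.0366, in female 352, to 1.01, with a median of 0.481.

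**Figure D2:**
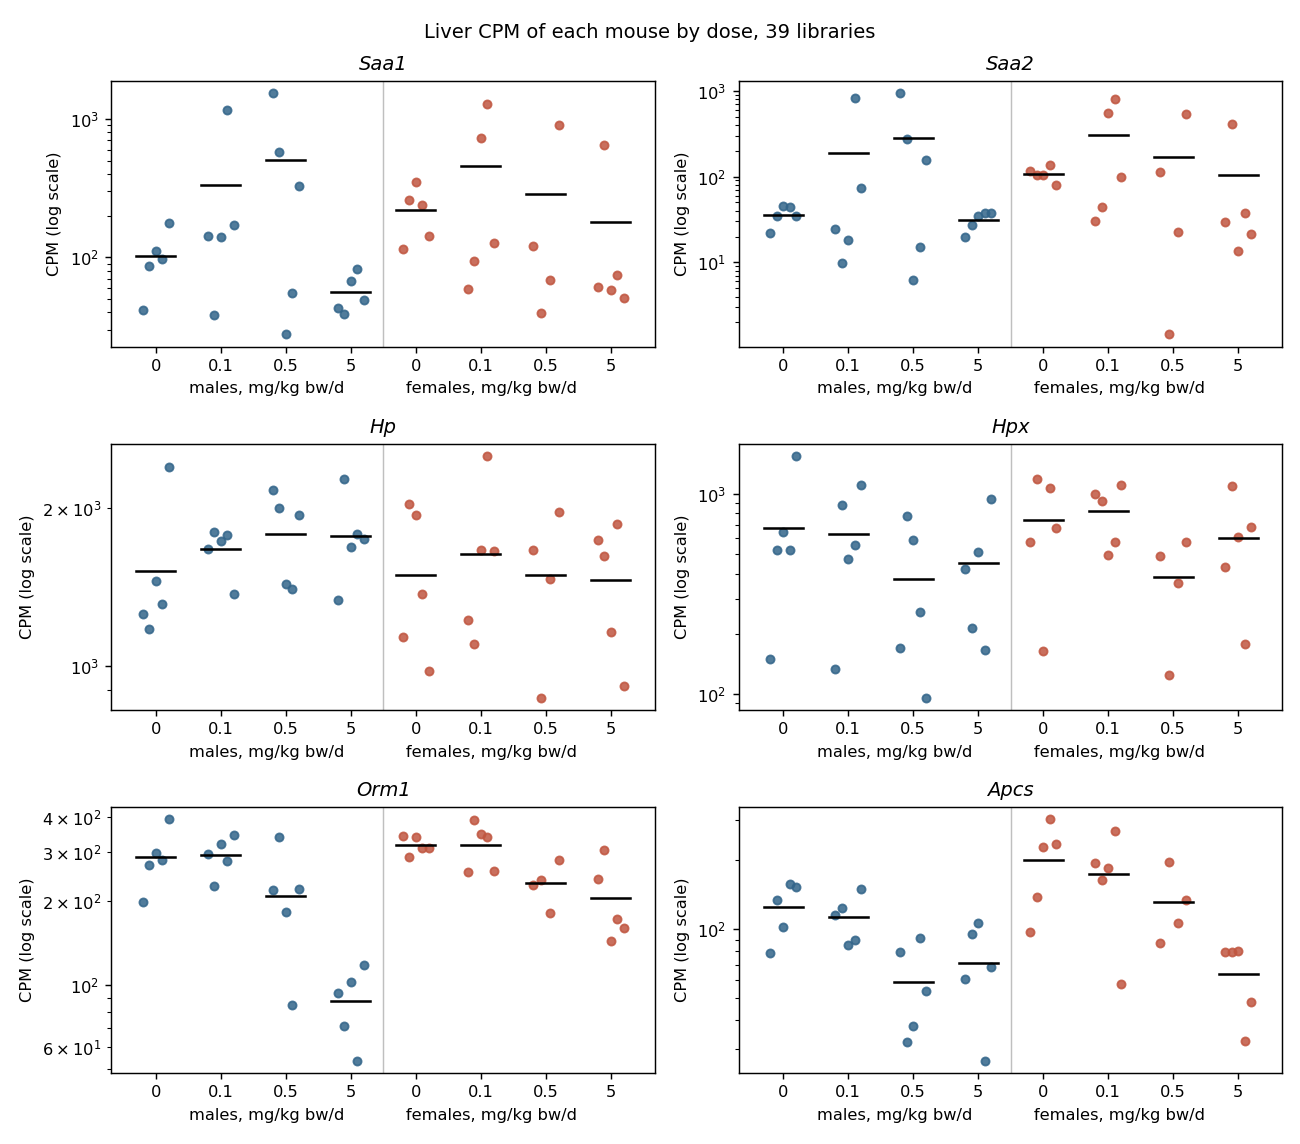
CPM of Saa1, Saa2, Hp, Hpx, Orm1 and Apcs in each of 39 mice (points) on log axes, by sex and dose in mg/kg bw/d, with group means as bars. Orm1 steps down in males at 5 mg/kg and Apcs in females at 5 mg/kg, while Saa1 and Saa2 spread widely at 0.1 and 0.5 mg/kg, where single animals reach 1538 and 938 CPM.

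Saa3, a serum amyloid A made mostly outside hepatocytes, and Saa4, the form that is present without an acute phase, were hardly read. Saa3 was at 0 in 15 of 39 libraries and at most 27.8 CPM, in 1 male at 0.5 mg/kg. Saa4 was at 0 in 33 of 39 libraries and at most 5.72 CPM, in 1 female at 0.1 mg/kg. A count of 0 allows up to 3 reads, or 0.193 to 0.290 CPM, and if molecules rather than reads are counted it allows 4.57 to 10.4 CPM. The Saa4 values above 0 were 1.99 to 5.72 CPM. Neither gene passed the threshold in any comparison, and no fold change is given for Saa4, which had 0 reads in all animals of 3 groups. DESeq2 counted Saa4 among its calls at 0.1 and 5 mg/kg in males and at 5 mg/kg in females, each time between a group at 0 and a group with 1 or 2 animals above 0.

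Hp encodes haptoglobin, which binds free hemoglobin, and Hpx encodes hemopexin, which binds free heme. Hp was among the steadiest of the members, with group means between 1461 and 1787 CPM and a ratio of the highest to the lowest animal of 1.31 to 2.27 within a group. Its log2 fold change at 5 mg/kg was 0.22 in males (95% interval -0.21 to 0.64) and -0.03 in females (95% interval -0.46 to 0.39), so a change of 2-fold or more lay outside both intervals. The other 2 Hp probes gave -0.40 and 0.42 in males and -0.21 and -0.18 in females, and none was called. Hpx varied more, from 96.3 to 1540 CPM over the 39 animals, and had group means of 677, 632, 377 and 451 CPM in males and 736, 819, 386 and 599 CPM in females at the rising doses. At 0.5 mg/kg its log2 fold change was -0.84 in males (SE 0.51, adjusted p = 0.465) and -0.93 in females (SE 0.55, adjusted p = 0.592). The male value was -0.29 without control male 105 and -1.28 without male 302. Treated and control animals overlapped at every dose, and no call was made.

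Lcn2 encodes lipocalin 2, which binds bacterial siderophores that carry iron, and it marked the difference between the sexes. In control males it was at 0, 0, 6.40, 5.16 and 1.17 CPM and in control females at 25.2, 77.8, 77.8, 81.4 and 55.8 CPM. All 5 control females were above all 5 control males, with a log2 difference of 4.63 (95% interval 2.34 to 6.92, adjusted p = 0.0124). At 20.8 to 49.8 reads a molecule, the male values stand for none to a few molecules. In males at 5 mg/kg Lcn2 was at 15.5, 24, 7.63, 7.10 and 10.1 CPM, above all 5 controls, but with a log2 fold change of 2.33 and an SE of 1.04 it did not pass the threshold (adjusted p = 0.190). In females it was at 2.38, 6.37, 6.42 and 36.3 CPM at 0.5 mg/kg (log2 fold change -2.31, SE 1.11, adjusted p = 0.485) and at 27.2, 72.2, 8.13, 2.93 and 0 CPM at 5 mg/kg (log2 fold change -1.52, SE 0.99, adjusted p = 0.555). Both female groups overlapped the controls. The difference between the sexes in the response was -4.64 at 0.5 mg/kg (SE 1.52, adjusted p = 0.210) and -3.85 at 5 mg/kg (SE 1.44, adjusted p = 0.191), neither past the threshold. Over 7 alternatives this difference was called in 1 at 0.5 mg/kg (adjusted p from 0.000892 to 1) and in 2 at 5 mg/kg (0.00400 to 0.495). Lcn2 in females was called lower with counts in molecules, the alternatives giving 0.0970 to 1 at 0.5 mg/kg and 0.0855 to 0.976 at 5 mg/kg, and in males it was called higher with no filter on low counts, the alternatives giving 0.0259 to 0.671 at 0.5 mg/kg and 0.00911 to 0.406 at 5 mg/kg. With mouse 355 added, the female value at 0.5 mg/kg turned to 4.00.

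Orm1 and Orm2 encode alpha-1-acid glycoproteins, also called orosomucoids, which bind drugs and other small molecules in plasma. Orm1 in control males was at 198, 269, 298, 280.3 and 392 CPM, and at 5 mg/kg it was at 93.9, 71.6, 103, 53.6 and 118 CPM. All 5 treated males were below all 5 controls, and the mean fell from 288 ± 69.8 to 88.0 ± 25.5 CPM (SD, n = 5 each). The log2 fold change was -1.71 (SE 0.23, adjusted p = 2.05e-07), and it stayed called, between -1.84 and -1.57, without any single mouse. At 0.5 mg/kg the males were at 218, 338, 183, 84.6 and 222 CPM, overlapping the controls (log2 fold change -0.46, SE 0.22, adjusted p = 0.264), and at 0.1 mg/kg they were at 296, 226, 320.5, 279 and 345 CPM, within the spread of the controls (log2 fold change 0.03). Orm1 was also lower at 5 than at 0.5 mg/kg in males, by -1.25 on the log2 scale (SE 0.23, adjusted p = 0.000256), although the highest male at 5 mg/kg was above the lowest at 0.5 mg/kg. With counts taken in molecules the log2 fold change of Orm1 in males was -1.80, and the median over all probes moved from 0.10 to -0.01.

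In females, Orm1 was at 342, 288, 339.7, 308 and 310.4 CPM in controls, at 229, 238, 181 and 279.8 CPM at 0.5 mg/kg and at 240.3, 305, 144, 173 and 159.7 CPM at 5 mg/kg. All 4 females at 0.5 mg/kg were below all controls, and at 5 mg/kg mouse 452, the female with the high Saa1, lay within the control range. Neither passed the threshold, at a log2 fold change of -0.45 (SE 0.24, adjusted p = 0.488) and -0.64 (SE 0.22, adjusted p = 0.150). Without mouse 452 the change at 5 mg/kg was -0.83 and was called (adjusted p = 0.0377), and over all other leave-out fits and alternatives the adjusted p ran from 0.0328 to 0.674. The fall of Orm1 at 5 mg/kg was 1.07 smaller in females than in males on the log2 scale (SE 0.32, 95% interval 0.44 to 1.71), and this difference did not pass the threshold (adjusted p = 0.117). It did so in 6 of 7 alternatives and without male 101, male 405 or female 453, with adjusted p values over all of these from 0.0171 to 0.538.

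Orm2 had fewer reads than its neighbor and differed between the sexes. It was at 6.08, 5.79, 2.03, 4.60 and 16.2 CPM in control males and at 27.2, 55.7, 29.2, 23.7 and 38.6 CPM in control females, with all females above all males (log2 difference 2.33, SE 0.63, adjusted p = 0.0289). Females at 5 mg/kg were at 13.7, 19.2, 11.5, 16.4 and 7.35 CPM, each below the lowest control female. With a log2 fold change of -1.35 (SE 0.61, adjusted p = 0.258) the change was not called, and it was called when only the groups compared were fitted (adjusted p = 0.0397) and when counts were taken in molecules (adjusted p = 0.0283), the alternatives together giving 0.0283 to 0.715. At 0.1 mg/kg females were at 10.7, 24, 26, 31.2 and 29 CPM and at 0.5 mg/kg at 11.8, 24.8, 16.1 and 40.5 CPM, both overlapping the controls. In males Orm2 had group means between 6.77 and 9.70 CPM at all doses, with overlapping animals.

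**Figure D3:**
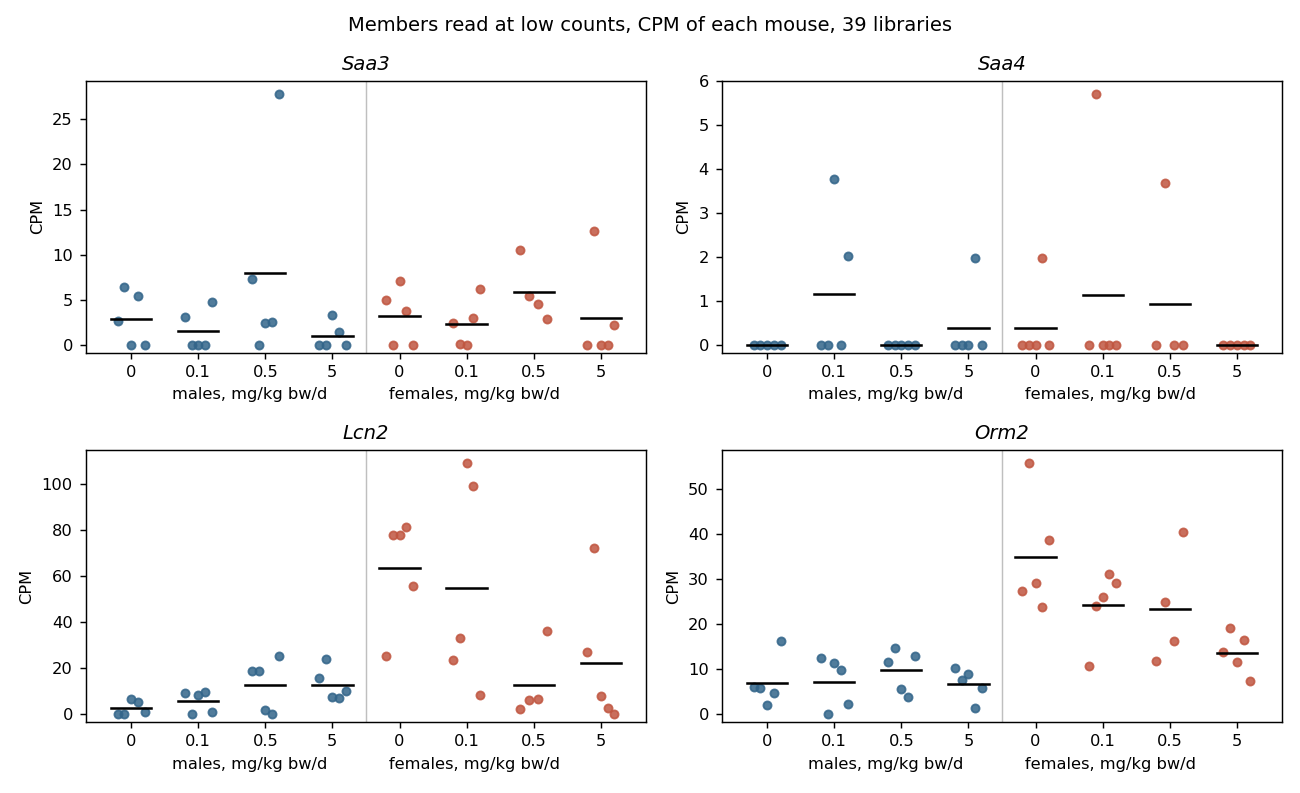
CPM of Saa3, Saa4, Lcn2 and Orm2 in each of 39 mice (points) on linear axes, by sex and dose in mg/kg bw/d, with group means as bars. Control females lie above control males for Lcn2 and Orm2, and most libraries are at or near 0 for Saa3 and Saa4.

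Apcs encodes serum amyloid P component, a pentraxin that binds amyloid fibrils and is a major acute-phase protein of the mouse. In females it was at 97.3, 138, 229, 301 and 235 CPM in controls, at 87.4, 196, 106 and 133 CPM at 0.5 mg/kg, and at 79.8, 79.2, 79.9, 32.5 and 47.9 CPM at 5 mg/kg. All 5 females at 5 mg/kg were below all controls and below all 4 females at 0.5 mg/kg. The mean was 200.1 ± 81.5 CPM in controls and 63.9 ± 22.3 CPM at 5 mg/kg (SD, n = 5 each), a log2 fold change of -1.65 (SE 0.33, adjusted p = 0.000801), and the second Apcs probe gave -1.69 (adjusted p = 0.000769). The call held in every alternative and every leave-out, with log2 fold changes from -1.82 to -1.45. At 0.1 mg/kg females were at 194, 163, 185, 266 and 57.8 CPM, overlapping the controls (log2 fold change -0.21, SE 0.32). The step from 0.5 to 5 mg/kg in females was -1.03 (SE 0.34, adjusted p = 0.205) and was not called.

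In males, Apcs was at 78.4, 133, 102, 157 and 152 CPM in controls, at 79.6, 32.3, 37.7, 91.9 and 53.7 CPM at 0.5 mg/kg, and at 60.7, 95.1, 106, 26.7 and 68.3 CPM at 5 mg/kg. Of the males at 0.5 mg/kg, 3 were below every control, and both treated groups overlapped the controls. Apcs fell at 0.5 mg/kg, by a log2 fold change of -1.08 (SE 0.33, adjusted p = 0.0856), and at 5 mg/kg it stood at -0.80 (SE 0.32, adjusted p = 0.150), not called. The call at 0.5 mg/kg was narrow: leaving out male 102, 104 or 105 of the controls or male 302, 303 or 305 of the treated group ended it, with adjusted p values of 0.152 to 0.234, and so did adding mouse 355 to the fit (adjusted p = 0.294). The call at 0.5 mg/kg was kept in 6 of 7 alternatives, with adjusted p down to 0.00284. At 5 mg/kg, leaving out male 403 made the call (log2 fold change -0.99, adjusted p = 0.0878). So did counts in molecules (adjusted p = 0.0358) and no filter on low counts (adjusted p = 0.0285), the alternatives together giving 0.0285 to 0.228. The response of Apcs to 5 mg/kg differed between the sexes by -0.84 (SE 0.46, 95% interval -1.76 to 0.07, adjusted p = 0.444), past no threshold.

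Between doses and sexes, few members were called. For 5 against 0.5 mg/kg, 2 members were called lower in males, Orm1 and Saa1, where 2.64% of all probes were called. In females 0 members were called, where 1.23% of all probes were called. There 2 members had an unadjusted p below 0.05, beside 2479 of the 17877 probes. DESeq2 called 1 member there, beside 572 of all its probes. The difference between the sexes in the response was called for 0 members at the lowest dose (0% of all probes), 0 at the middle dose (0.274%) and 0 at the highest (1.04%). There were 0, 1 and 3 members at an unadjusted p below 0.05, beside 1504, 1951 and 2210 of all probes tested. DESeq2 called 0, 0 and 2 members, beside 216, 389 and 543 of all its probes. Control females differed from control males for 2 members, Lcn2 and Orm2, both higher in females, where 3.49% of all probes were called. DESeq2 called 3 members, the other being Saa4, beside 1077 of all its probes. The most read Apcs probe was not called (log2 difference 0.68, adjusted p = 0.245), while the second Apcs probe was called higher in females (1.05, adjusted p = 0.0875). The median log2 difference of the 10 members between control females and males was 0.90 (0.68 without Saa4), beside 0.03 over all probes. Saa2 was at 79.3 to 137 CPM in control females and at 22 to 45.1 CPM in control males, without overlap, and its log2 difference of 1.58 (SE 1.0, adjusted p = 0.494) was not called.

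Animals of 1 group that were high in Saa1 were also high in some other members. After the group mean was subtracted from each log2 CPM, Saa1 and Saa2 had a Pearson r of 0.93 (Spearman rho 0.89) over the 39 libraries, Saa1 and Lcn2 0.63, Lcn2 and Orm1 0.62, Saa1 and Hp 0.59, Saa2 and Hp 0.56, Lcn2 and Orm2 0.54 and Saa2 and Lcn2 0.51. These were the 7 of 45 pairs with r over 0.5, and 14 pairs were below 0, with a median over all pairs of 0.06. Values of r were 0.01 for Hp with Hpx, 0.03 for Saa1 with Hpx and 0.13 for Saa1 with Apcs. The animal with the most Saa1 in its group also had the most Saa2 in 5 of 8 groups, the most Hp in 4, the most Orm2 in 4, the most Lcn2, Orm1 or Hpx in 3 each, the most Saa3 in 2 and the most Apcs in 1. These values are given as a description, since all points share their libraries and depth, and low counts such as those of Saa3, Saa4 and Lcn2 weaken any r.

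**Figure D4:**
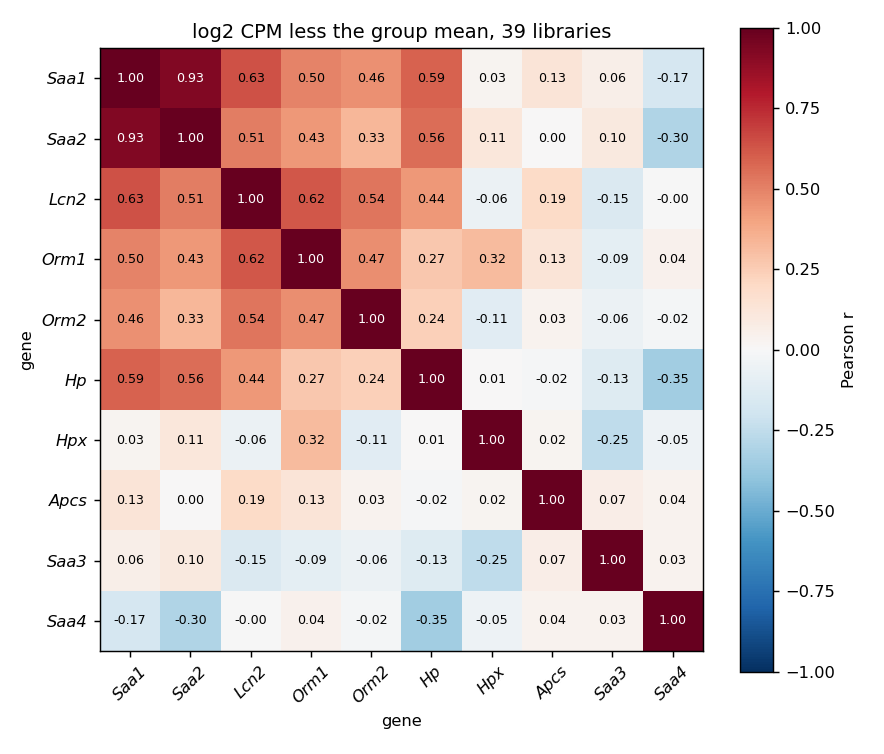
Pearson r between the 10 members over 39 libraries, computed on log2 CPM less the group mean. Saa1, Saa2, Lcn2, Orm1, Orm2 and Hp form the block with positive values, up to 0.93 for Saa1 and Saa2, and the highest value of Hpx, Apcs, Saa3 or Saa4 with any other member is 0.32, for Hpx with Orm1.

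Of 4094 other genes with a mean log2 CPM of at least 4, those most like Saa1 in this measure were Serpina10 (r = 0.61), an inhibitor of coagulation proteases, Ripk1 (0.60), a kinase of TNF receptor signaling, H2-Q4 (0.57) and H2-T23 (0.57), class I histocompatibility genes, and Cp (0.57), which encodes ceruloplasmin. Among those most like Hp were Cr1l (0.59), a complement regulator, Smn1 (0.58), Dynlt3 (0.57) and Cp (0.57).

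Mouse 355, the female at 0.5 mg/kg that was left out of the tests, had the 10 member probes at 22.9% of its reads, while they made up 0.156% to 0.579% in the other 39 libraries. With all 40 libraries scaled together, its Saa1 was at 94948 CPM and its Saa2 at 62557 CPM, the most and second most read probes of that library, where the highest other animals were at 1557 and 949 CPM. Saa3 was at 7620 CPM beside at most 28 elsewhere, Lcn2 at 5089 beside 109 and Orm2 at 3699 beside 56.3. Orm1 (2248 CPM, 5.74 times the highest other animal), Hpx (4377 CPM, 2.84 times) and Hp (6084 CPM, 2.42 times) also exceeded every other library. Apcs, at 249.7 CPM by its most read probe, ranked 3 among the 40 animals, and Saa4 was at 0. The second Apcs probe was at 424 CPM in mouse 355, above the 238 CPM of mouse 254, the highest other animal. The 4 other females at 0.5 mg/kg were at 39.7 to 913 CPM for Saa1 on this scale, within the range of the remaining animals.

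Of 33 other positive acute-phase genes with reads, 18 were higher in mouse 355 than in all other animals, 3 were lower than in all others and 12 lay within their range. Of 15 negative ones, 0 were higher, 8 were lower and 7 lay within the range. The share of all probes outside the range of the other animals is not given here, so these counts have no background. Over the probes tested, the median log2 ratio of CPM+1 in mouse 355 to the median of mice 351-354 was -0.47. Fgg, the fibrinogen gamma chain, was at 13163 CPM beside at most 4137 elsewhere, Mt2, a metallothionein, at 4668 beside 724, Serpina3n at 469 beside 90.3, Lrg1 at 499 beside 113, Cebpb, a transcription factor of the response, at 2909 beside 786, and Nfkbia, the NF-kB inhibitor, at 977 beside 91.7. Socs3, which STAT3 induces, was at 43.3 CPM and at most 5.89 elsewhere, while the cytokines Il6, Il1b and Tnf were at 0. The 3 positive genes below all others were Serpina1b (1097 CPM beside 1325 to 6365), Serpina1d (9.11 beside 26.9 to 330.3) and Mbl2, a mannose-binding lectin (8.14 beside 48.3 to 254). Albumin (Alb), a negative acute-phase protein, was at 253 CPM beside 2636 to 5478 in all other animals, and Serpina6, which encodes the corticosteroid carrier, at 8.38 beside 75.6 to 453. The 11 Kupffer cell and macrophage markers summed to 964 CPM, with Marco at 73.3 beside at most 5.41 elsewhere and with Adgre1 and Timd4 at 0 (Timd4 in all 40 libraries), and to 107 to 408 CPM in the other animals when those 39 were scaled on their own. The 10 neutrophil markers summed to 86.9 CPM, with S100a8 at 31.3 beside at most 2.52, Ltf at 26.5 beside at most 1.57, Mpo and Camp at 0 and S100a9 and Elane at 0 in all 40 libraries, and to 0 to 56.9 CPM in the other animals. The hepatocyte markers summed to 14909 CPM, with Cps1 at 0, and to 12717 to 35920 CPM in the other animals when scaled on their own. The counts of mouse 355 gathered around multiples of 72.9 reads, beside 75 reads for Serpina1d and 67 for Mbl2. Its low values, such as those of Socs3, S100a8 and Ltf, thus stand for few molecules. A count of 0 in this library does not show that a gene was absent. This library also had the fewest molecules, 92099, and 8345 probes with reads, and what these values have to do with its acute-phase counts was not tested. It is 1 animal and gives no test of the dose.

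**Figure D5:**
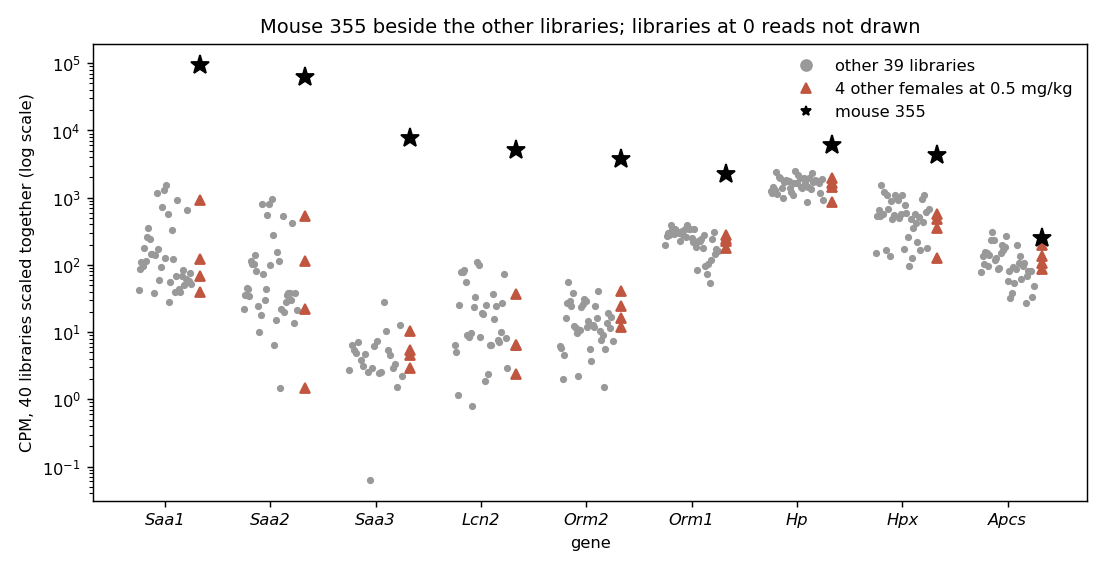
CPM on a log axis of 9 acute-phase genes in mouse 355 (stars), the 4 other females at 0.5 mg/kg (triangles) and the other libraries (dots), with all 40 libraries scaled together and libraries at 0 not drawn. Saa1 of mouse 355 is at 94948 CPM beside at most 1557 in the others. Apcs, drawn by its most read probe, is the gene for which mouse 355 falls within the range of the others.

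The other acute-phase genes held more lower than higher calls at 5 mg/kg. Over all probes, 3.45% were called lower and 4.83% higher in males, and 1.83% lower and 1.83% higher in females. Of 30 other positive acute-phase proteins tested, 15 were lower and 3 higher in males, and 13 were lower and 0 higher in females, with a median log2 fold change of -0.66 (-0.71 without the 3 genes that had 0 reads in a whole group) and -0.82. Those with the smallest p in males were Serpina1e (-1.88), Serpina1d (-2.43), Itih4 (-2.01) and Serpina1b (-1.77), and in females Serpina1e (-1.92), Serpina1a (-2.08), Serpina1d (-2.03) and Serpina3k (-1.47). Serpina1 genes encode alpha-1-antitrypsins, which share sequence, and Itih4 encodes an inter-alpha-trypsin inhibitor heavy chain. The 3 that were higher in males were Mt2 (3.96), Il1rn and Hamp2, of which Il1rn and Hamp2 had 0 reads in all control males, as Orm3 had in all males at 5 mg/kg. Of 15 negative acute-phase proteins tested, 10 were lower in males and 7 in females, 0 were higher and the rest were not called. Those with the smallest p in both sexes were Ahsg (-1.31 and -0.96), which encodes fetuin-A, and Trf (-0.96 and -0.67), which encodes transferrin. The log2 fold change of albumin was -0.07 for males, with an adjusted p of 0.975, and -0.22 for females, with an adjusted p of 0.308.

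Among all probes, 8.28% (males) and 3.66% (females) were called at this dose, and the list of the interleukin-1, TNF and NF-kB arm held shares near these. The other short lists of upstream genes held larger shares, each resting on few called genes. Of 14 genes of the interleukin-6 and STAT3 arm tested, 3 were higher and 1 lower in males and 0 higher and 2 lower in females at 5 mg/kg. Stat3 was lower in both sexes (-0.79 and -0.75), Lifr, the receptor for leukemia inhibitory factor, was lower in females (-1.59), and Ptpn11, a phosphatase of cytokine signaling, was higher in males (0.69). Adam17, a protease that sheds cytokine receptors, and Lepr, the leptin receptor, had 0 reads in all control males and group means of 3.60 and 1.74 CPM at 5 mg/kg. Of 26 genes of the interleukin-1, TNF and NF-kB arm, 3 were lower in males and 1 in females, and 0 were higher. Il1r1, the interleukin-1 receptor, was lower in both (-1.32 and -1.58) and its partner Il1rap in males (-1.27). Of 13 transcription factors, Hnf4a (-0.80) and Cebpa (-0.81) were lower and Creb3l3 (0.55) higher in males, and Hnf4a (-0.56) was lower in females. Of 12 receptors and partners of clearance, Asgr2 (-1.16), Lrp1 (-1.03), the hemopexin receptor, and Scarb1 (-1.29), a receptor for high-density lipoprotein, were lower in males and Scarb1 (-0.90) in females.

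Some cell type markers differed at the same dose. Of 6 hepatocyte markers, the same 3, Cps1, Apoa1 and Hnf4a, were lower at 5 mg/kg in males (-1.18, -0.88 and -0.80) and in females (-1.02, -0.71 and -0.56), and the list summed to 15274 to 20807 CPM in males at 5 mg/kg against 26373 to 33743 CPM in control males. In females it summed to 12717 to 20103 CPM at 5 mg/kg against 18719 to 35920 CPM in controls. The other hepatocyte markers, Alb, Asgr1 and Tat, were not called in either sex. Such a sum mostly follows the most counted genes of its list. None of 10 Kupffer cell and macrophage markers tested, 3 neutrophil markers or 4 lymphocyte markers was called in either sex at 5 mg/kg, and the stellate cell genes Col3a1 (2.45) and Col1a1 (1.63) were higher in males. The part of these markers in the falls of Orm1 and Apcs was not tested.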

How the data were processed

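RNA from 1 formalin-fixed, paraffin-embedded liver section per mouse was profiled by TempO-Seq in 40 libraries. The authors demultiplexed reads with bcl2fastq 2.17.1.14, aligned them to the assay's probe sequences with Bowtie (version not given in the sources used here) on build mm10, and deposited raw counts of reads per probe. The table holds 30146 probes of 21448 gene symbols, and 0 sample columns were unused. From these counts, TMM scaling, filterByExpr and the quasi-likelihood F-test of edgeR 4.0.16 (R 4.3.3) were applied to 39 libraries in 8 groups of sex and dose, with Benjamini-Hochberg adjustment over 17877 probes of 12418 genes and an FDR threshold of 10%. Mouse 355, over 2 SD below the mean depth, was left out. CPM are TMM-scaled, and log2 CPM used a prior count of 2. Intervals are 95% and cover the fitted spread between mice, and depth floors cover counting error only. Replicates are mice, each with its own number.

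The scripts were tested on simulated data. Members and gene lists were chosen with earlier results of these data known. For the wider lists, up to 4 genes per list and sex with the smallest p were named in the positive and negative lists, and called genes in the others. The alternatives were DESeq2 1.42.0, its size factors in place of TMM, no low-count filter, the 40 libraries together, a fit on the compared groups alone, sums of the probes of a gene, counts in molecules (reads divided by the first peak of the count distribution, smoothed with an SD of 2 reads) and leaving out each mouse. Gene positions came from GENCODE on GRCm38 and promoters from RefSeq on GRCm38.p6. Proteins were not used here. One gene among those most like Hp is not reported here.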

Additional observations from a re-analysis of the deposited data

Results flagged for a closer look

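Among 77 groups of 4 or 5 mice with a member above 0, 7 held a mouse whose gap to its nearest neighbor exceeded Dixon's 95% critical value. Chance gives about 1 in 20 groups. That rate does not apply to the 4 of them for Saa4, where a single mouse above 0 is flagged whatever its value. Saa1 in mouse 452 (female, 5 mg/kg) was at 651 CPM, with the others of its group at 51.1 to 75 CPM. Saa4 stood apart because the other mice of the group were at 0: it was at 1.99 CPM in mouse 154 (control female), at 5.72 CPM in mouse 252 (female, 0.1 mg/kg), at 3.69 CPM in mouse 352 (female, 0.5 mg/kg) and at 1.99 CPM in mouse 404 (male, 5 mg/kg). Hp in mouse 205 (male, 0.1 mg/kg) was at 1375 CPM, with the others at 1672 to 1798 CPM, and Orm2 in mouse 251 (female, 0.1 mg/kg) was at 10.7 CPM, with the others at 24 to 31.2 CPM.

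Mouse 355 was left out of the comparisons, and 8 members there, each by its most read probe, exceeded every control mouse with the 40 libraries scaled together. Saa1 was at 94948 CPM (highest control 358), Saa2 at 62557 (140.0), Saa3 at 7620.0 (7.18), Lcn2 at 5089 (82.9) and Orm2 at 3699 (56.3). Hp was at 6084 CPM (highest control 2389.7), Hpx at 4377 (1539.7) and Orm1 at 2248 (392).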

How the results depend on the processing

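The falls of Orm1 in males and Apcs in females at 5 mg/kg were called in all 7 alternatives and without any single mouse. The counts of members called moved by over 1.5 times, or from 0, as follows. With all 40 libraries they were 0 for control females against males, 0 for males at 0.5 mg/kg, 0 for males at 5 against 0.5 mg/kg and 6 for females at 5 against 0.5 mg/kg, where Lcn2 turned to a log2 difference of -5.52 from 0.78, the only called sign change, by the addition of mouse 355. With DESeq2 they were 2 for the difference between the sexes at 5 mg/kg, 1 for females at 5 against 0.5 mg/kg, 2 for females at 5 mg/kg, 1 for males at 0.1 mg/kg, 4 for males at 5 against 0.5 mg/kg and 2 for males at 5 mg/kg, with Saa4 among them by groups at 0. With no filter on low counts they were 1 for the difference between the sexes at 0.5 mg/kg and 2 for that at 5 mg/kg, 1 for females at 5 against 0.5 mg/kg, 2 for females at 5 mg/kg, and 2, 4 and 3 for males at the rising doses. With counts in molecules they were 2 for the difference between the sexes at 5 mg/kg, 1 and 4 for females at 0.5 and 5 mg/kg, and 2 and 2 for males at these doses. With only the groups compared they were 4 for control females against males, 1 for the difference between the sexes at 5 mg/kg, 2 for females at 5 mg/kg and 2 for males at 0.5 mg/kg, and with size factors or summed probes 1 for the difference between the sexes at 5 mg/kg. Smaller moves from 2 to 3 were seen for control females against males with DESeq2 or no filter, and for males at 5 against 0.5 mg/kg with no filter, molecules or only the groups compared. Without single mice the counts ran from 0 to 1 for that difference and for males at 0.5 mg/kg, from 1 to 2 for females and for males at 5 mg/kg, and from 1 to 3 for males at 5 against 0.5 mg/kg. The median correlation between members moved from 0.0622 to 0.321 with all 40 libraries. Of the members' fold changes under all settings, 2207 kept their side of the threshold, 52 came under it, 14 were lost and 1 reversed. The cause of these changes was not tested beyond what each setting leaves out. No paired analysis was possible because each mouse has its own number and no number is shared between groups. Depth limits Saa3, Saa4, Lcn2 and Orm2, which rest on at most 46.8 molecules in each of the 39 tested libraries. Over all probes, the share of calls that were higher in males was 73.2% at 0.5 mg/kg (52.8% in molecules, 60.1% with DESeq2) and 58.3% at 5 mg/kg (47.7% in molecules).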
